A study of Mus musculus with 45 samples.

Results

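The MEF2 transcription factors of the mouse are the 4 genes Mef2a, Mef2b, Mef2c and Mef2d, and their RNA was followed through the conversion of fibroblasts into muscle cells. The members were chosen by gene name, 4 of the 35675 genes in the deposited tables, and each gene's value is the sum over its transcripts. The study measured poly(A) RNA by single-end sequencing in 45 libraries, 3 in each of 15 groups, and every library carries the genotype Tg:Pax7-nGFP/C57BL6;DBA2, a transgenic mouse background in which green fluorescent protein in the nucleus reports Pax7, a factor of muscle stem cells. Mouse embryonic fibroblasts (MEF) were left untreated or were given doxycycline, which switches on an introduced MyoD, the master regulator of the muscle lineage, for 2, 4, 6, 8 or 10 days. The same times were collected for cells given doxycycline together with the small molecules F/R/C. The labels give only these initials; in the published method they stand for forskolin, RepSox and a GSK3 inhibitor. The labels call the cells with MyoD alone myotubes, and those with MyoD and F/R/C a mixture of muscle fibres and progenitors. The other 4 groups are bulk induced myogenic progenitor cells (iMPC, established clones that no longer need doxycycline, kept in F/R/C medium after 13 days of doxycycline and F/R/C), bulk myoblasts from skeletal muscle, and the Pax7+ cells sorted by their fluorescence from iMPC and from myoblast cultures. How many clones or animals stand behind a group is not given in the sources used here, so p-values measure only the spread between these libraries, which may be technical.

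MEF2 proteins bind DNA through a MADS box and a MEF2 domain at their amino end, and form pairs with each other. In skeletal muscle they work beside MyoD and myogenin on the genes of the contractile apparatus and of metabolism. Class IIa histone deacetylases hold them inactive, and calcium and p38 signalling release them. Their messages are spliced into variants: a pair of alternative exons, of which one is typical of muscle, and a short acidic exon that raises the activity of the protein.

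The libraries held 15.6 M to 36.3 M reads each (median 22.1 M). The introduced gene checked the labels: Myod1 lay between 0.761 and 8.84 CPM (reads scaled to a common library size) in MEF and at a group mean of 792 CPM or more in each of the 10 groups given doxycycline, although reads of the introduced and of the cell's own Myod1 cannot be told apart. The summed CPM of 11 markers of differentiated muscle was 51.9 to 160.4 in MEF, at least 9695 in every time-course library and 1377 to 1898 in the sorted Pax7+ iMPC. In MEF the highest sum was that of replicate 1. Its mean log2 of CPM plus 1 over these markers was 3.19, against 0.694 and 0.670 in replicates 2 and 3. That library also held the highest Mef2c of MEF, at 13.1 against 3.21 and 5.64 CPM. Bulk myoblast replicate 3 stood apart, with a sum of 1143 against 32751 and 18271 in replicates 1 and 2, and Pax7+ myoblast replicate 3 held the highest sum of its group (15267 against a lowest value of 4357). Member differences and counts of MEF2 regulators and targets that rest on these 2 myoblast libraries are given with and without them. Counts of cell type markers were taken with all libraries only.

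Mef2a was present in MEF, at 118, 170.4 and 249.6 CPM in replicates 1, 2 and 3. After 2 days of MyoD alone it stood at 628, 781 and 656 CPM, and after 2 days of MyoD and F/R/C at 786, 1102 and 803 CPM. Every day 2 library lay above every MEF library. By edgeR's quasi-likelihood test with Benjamini-Hochberg adjustment over 17325 genes, where a gene is called at an adjusted p under 0.05 and a log2 change of at least 1, Mef2a rose in both arms (± here and below is the standard error of a log2 fold change, MyoD alone log2 fold change 1.94 ± 0.33, adjusted p = 2.59e-05, MyoD and F/R/C log2 fold change 2.32 ± 0.33, adjusted p = 2.41e-06). In bulk RNA, fewer cells with a message and less message per cell cannot be told apart.

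With MyoD alone, Mef2a then fell within 2 days. On day 4 it read 257, 226 and 221 CPM, below all 3 day 2 libraries (log2 fold change -1.55 ± 0.33, adjusted p = 0.00514, a comparison added after seeing the data), and it stayed there on day 6 (230.4, 251 and 223 CPM), day 8 (225, 233 and 189.6 CPM) and day 10 (221, 249.9 and 206 CPM). The day 10 level overlapped that of MEF (log2 fold change 0.33 ± 0.32, adjusted p = 0.453).

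In cells given F/R/C the descent was spread over the whole course. Mef2a read 585, 679.8 and 687 CPM on day 4, 480.2, 484 and 515 CPM on day 6, 324, 359.7 and 350.5 CPM on day 8 and 277, 335 and 328 CPM on day 10. The day 4 libraries lay below those of day 2 without passing the test (log2 fold change -0.46 ± 0.32, adjusted p = 0.425), while between day 2 and day 10 Mef2a fell in this arm (log2 fold change -1.52 ± 0.33, adjusted p = 0.00095) as it did with MyoD alone (log2 fold change -1.61 ± 0.33, adjusted p = 0.00127).

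On each of the 5 days all 3 F/R/C libraries lay above all 3 libraries of MyoD alone in Mef2a. The difference passed the test on day 4 (log2 fold change 1.47 ± 0.32, adjusted p = 0.00118) and day 6 (log2 fold change 1.07 ± 0.32, adjusted p = 0.0135), both added after seeing the data. It did not pass on day 2 (log2 fold change 0.38 ± 0.32, adjusted p = 0.524), day 8 (log2 fold change 0.68 ± 0.32, adjusted p = 0.101) or day 10 (log2 fold change 0.47 ± 0.32, adjusted p = 0.243). Averaged over the 5 days, Mef2a was 540 CPM in the F/R/C arm against 320 CPM (log2 fold change 0.81 ± 0.14, adjusted p = 1.05e-05), past the p threshold and short of the fold threshold. This test and the later ones over the 5 days count libraries of different days as independent. Whether the size of the F/R/C difference changed between day 2 and day 10 was tested directly, and no member was called (all genes 6.01%, Mef2a log2 fold change 0.09 ± 0.45, adjusted p = 0.93).

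**Figure D1:**
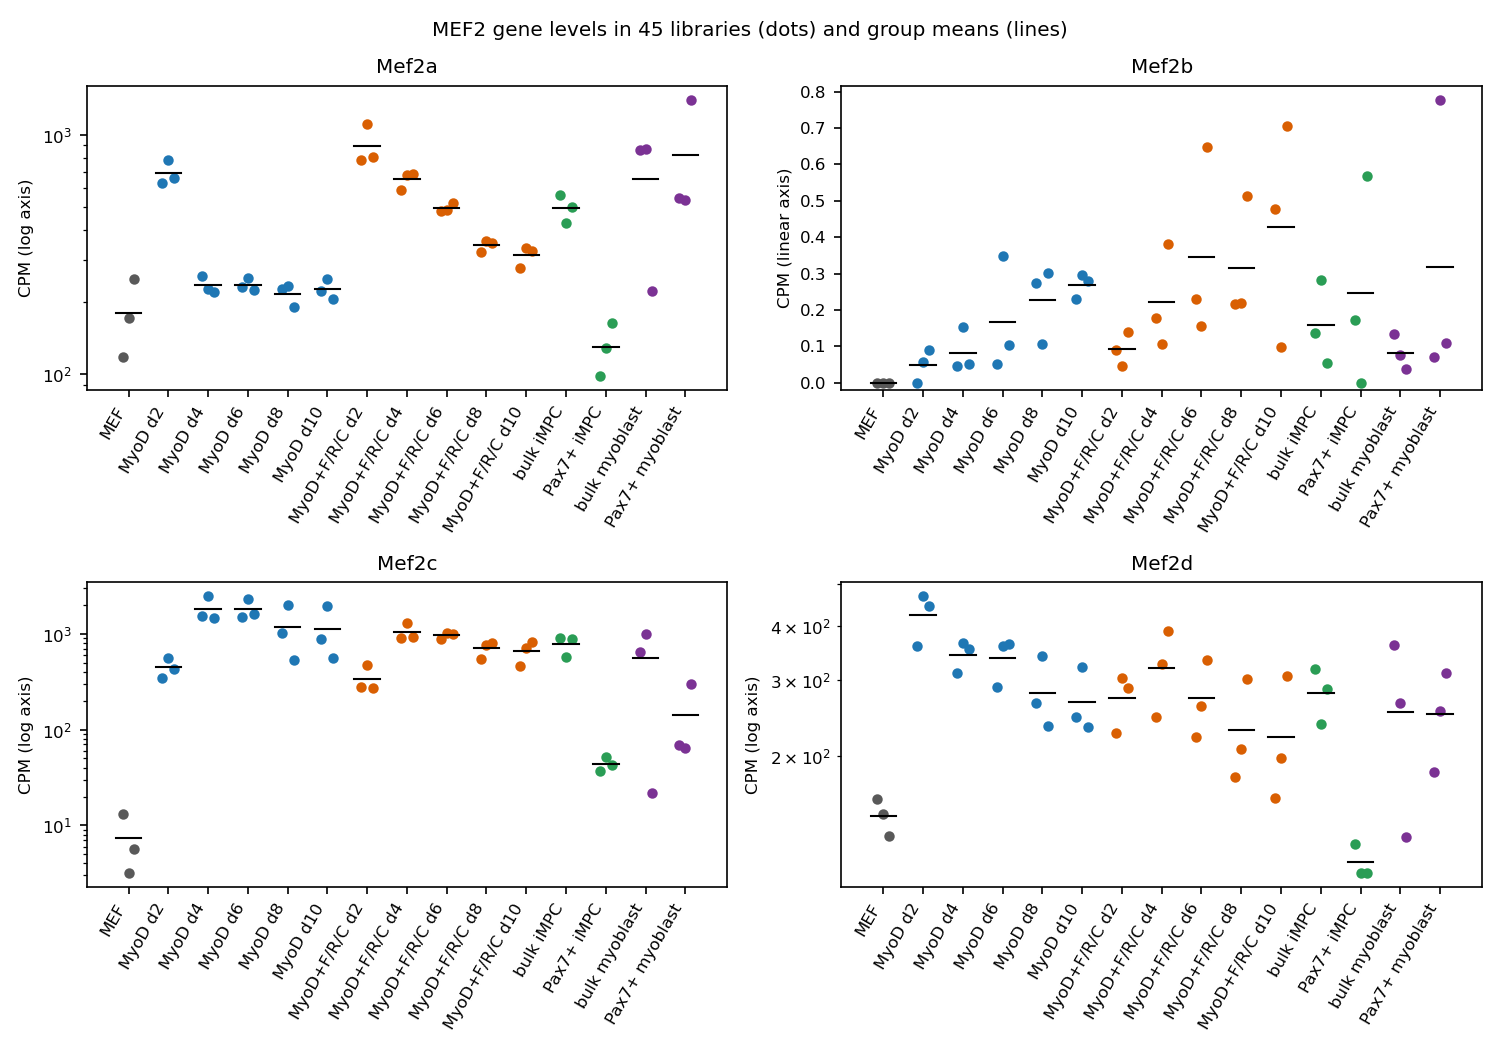
Levels of the 4 MEF2 genes in CPM (reads scaled to a common library size, vertical axes, logarithmic for Mef2a, Mef2c and Mef2d and linear for Mef2b) in the 15 groups along the horizontal axis, with 1 dot per library and a line at each group mean. Mef2c climbs from a mean of 7.30 CPM in MEF to 1816 CPM on day 4 of MyoD alone, and the F/R/C dots of Mef2a lie above those of MyoD alone on each of the 5 days.

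Mef2c, the member most closely tied to skeletal muscle and heart, had the widest range of the 3 abundant members, 249-fold between the highest and the lowest group mean. In MEF it read 13.1, 3.21 and 5.64 CPM. After 2 days it read 343, 558 and 433 CPM with MyoD alone and 277, 470.0 and 268 CPM in the F/R/C arm, so that the lowest day 2 library was far above the highest MEF library. Mef2c rose in both arms on day 2 (MyoD alone log2 fold change 5.92 ± 0.82, adjusted p = 1.1e-06, MyoD and F/R/C log2 fold change 5.53 ± 0.81, adjusted p = 3.08e-06).

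The highest Mef2c levels were those of day 4 and day 6. With MyoD alone Mef2c reached 1514, 2458 and 1474 CPM on day 4 and 1478, 2328 and 1600.3 CPM on day 6. The F/R/C arm reached 908, 1300.1 and 919.5 CPM and 889, 1017 and 989 CPM. In each arm the day 4 libraries were all above the day 2 libraries, and neither step was called in the fit of all 15 groups (MyoD alone log2 fold change 2.03 ± 0.69, adjusted p = 0.104, MyoD and F/R/C log2 fold change 1.62 ± 0.68, adjusted p = 0.165). Fitted on the compared groups alone, both steps were called (adjusted p = 0.00845 and 0.0148, log2 fold changes 2.01 and 1.63), and DESeq2 called the first (adjusted p = 0.0383).

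By day 10 the replicates of MyoD alone had spread widely, at 878, 1953 and 555 CPM, after 1026, 1972 and 536 CPM on day 8. Replicate 2 held the highest Mef2c on all 5 days of MyoD alone. It also held the highest sum of differentiated muscle markers on all 5 days (on day 10 34260 CPM against 15606 and 9695 CPM in replicates 1 and 3, the same order as Mef2c) and the lowest sum of fibroblast markers (14005 CPM on day 10 against 30529 and 20730 CPM), and the part of these differences in the Mef2c spread was not tested. The F/R/C libraries read 549, 754 and 806 CPM on day 8 and 464, 702 and 823 CPM on day 10. Against MEF, Mef2c on day 10 was called in both arms (MyoD alone log2 fold change 7.27 ± 0.87, adjusted p = 9.36e-08, MyoD and F/R/C log2 fold change 6.50 ± 0.84, adjusted p = 1.93e-07), while against day 2 it was not (MyoD alone log2 fold change 1.34 ± 0.67, adjusted p = 0.203, MyoD and F/R/C log2 fold change 0.97 ± 0.67, adjusted p = 0.291).

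Mef2c means were lower in the F/R/C arm than with MyoD alone on each of the 5 days, and the groups did not overlap on days 4 and 6. No single day was called (day 2 log2 fold change -0.39 ± 0.66, adjusted p = 0.788, day 4 log2 fold change -0.80 ± 0.66, adjusted p = 0.412, day 6 log2 fold change -0.90 ± 0.67, adjusted p = 0.332, day 8 log2 fold change -0.74 ± 0.66, adjusted p = 0.406, day 10 log2 fold change -0.77 ± 0.66, adjusted p = 0.372). Averaged over the 5 days, Mef2c was 742 CPM in the F/R/C arm against 1274 CPM (log2 fold change -0.72 ± 0.30, adjusted p = 0.0349), again under the fold threshold. The difference thus had the opposite sign to that of Mef2a.

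Mef2d, the broadly expressed member, changed least, with 3.74-fold between its highest and lowest group means. In MEF it read 159, 147 and 131 CPM, and on day 2 360.0, 469 and 446 CPM with MyoD alone and 226, 303 and 288 CPM in the F/R/C arm. Both day 2 groups were above MEF without overlap. Mef2d rose with MyoD alone (log2 fold change 1.55 ± 0.27, adjusted p = 3.51e-05). With F/R/C the change passed on p and stayed under the fold threshold (log2 fold change 0.90 ± 0.26, adjusted p = 0.00842), and leaving out F/R/C day 2 replicate 1 took it over (log2 fold change 1.03).

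Between day 2 and day 10 Mef2d was not called in either arm (MyoD alone log2 fold change -0.67 ± 0.26, adjusted p = 0.0994, MyoD and F/R/C log2 fold change -0.29 ± 0.26, adjusted p = 0.427). Day 10 read 246, 323 and 234 CPM with MyoD alone and 160.3, 199 and 307 CPM in the F/R/C arm, and the groups overlapped. Only on day 2 did the arms not overlap in Mef2d, with the lower values in the F/R/C arm (log2 fold change -0.64 ± 0.26, adjusted p = 0.133). Averaged over 5 days, Mef2d was 264 CPM in the F/R/C arm against 331 CPM (log2 fold change -0.32 ± 0.12, adjusted p = 0.0179).

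Mef2b, whose protein is best known from B cells, was close to the limit of detection throughout. MEF had 0, 0 and 0 reads, MyoD alone on day 10 5, 6 and 8 reads, and F/R/C on day 10 12, 2 and 20 reads. The largest count in any library was 22, in Pax7+ myoblast replicate 2, where the other replicates had 2 reads each. A count of 0 over the 3 MEF libraries allows up to 3 reads, or 0.05 CPM (counting error only). Against that floor Mef2b was at least 5.40-fold higher on day 10 of MyoD alone and at least 9.19-fold higher on day 10 in the F/R/C arm. Mef2b passed the filter on low counts only through its highest libraries, among them those of F/R/C day 10 with 12 and 20 reads. The day 10 libraries of MyoD alone, at 8 reads or fewer, were not among them. With no filter on low counts, edgeR's adjusted p was 0.0143 for MyoD alone and 0.00132 for the F/R/C arm. Its highest group mean was 0.427 CPM.

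Counting Mef2a, Mef2c and Mef2d, the 3 members with reads in every library, 3 of 3 were called on day 2 of MyoD alone against MEF, where 22.4% of all genes tested were called. On day 10 of MyoD alone 1 of 3 was called (all genes 18.9%), on day 2 in the F/R/C arm 2 of 3 (all genes 20.4%) and on day 10 in the F/R/C arm 1 of 3 (all genes 34.8%). In the last of these Mef2a was short of the fold threshold (log2 fold change 0.80 ± 0.32, adjusted p = 0.0345), which it passed without MEF replicate 3 (log2 fold change 1.13, adjusted p = 0.0102), making 2 of 3. These comparisons share the MEF libraries. For F/R/C against MyoD alone 1 of 3, Mef2a, was called on day 4 (all genes 13.2%) and on day 6 (all genes 15.4%). None of the 3 was called on day 2 (all genes 4.93%), day 8 (18.7%) or day 10 (23.3%), nor in the mean over 5 days (22.1%). From day 2 to day 10 the call was Mef2a in each arm (all genes 6.26% with MyoD alone and 16% in the F/R/C arm), and from day 2 to day 4 it was Mef2a with MyoD alone (2.49%) and none in the F/R/C arm (2.93%).

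**Figure D2:**
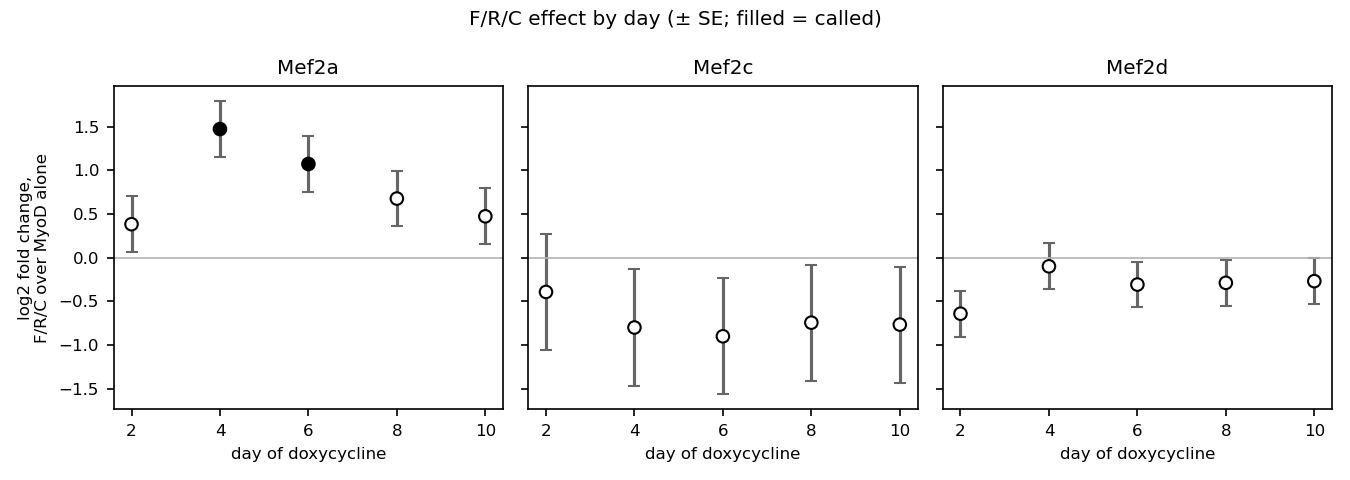
Log2 fold change between MyoD plus F/R/C and MyoD alone (vertical axis, bars are standard errors) on days 2 to 10 (horizontal axis) for Mef2a, Mef2c and Mef2d, with filled symbols where the edgeR test called the gene. Mef2a lies above 0 throughout and is filled on days 4 and 6, at 1.47 and 1.07, while the Mef2c points lie below 0.

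Markers of other cell types moved with the F/R/C comparison, and their part in the MEF2 differences was not tested. The summed CPM of 12 fibroblast markers was 12634 to 33394 in the libraries of MyoD alone and 1447 to 7369 in those of the F/R/C arm, against 20187 to 25301 in MEF. Gene by gene the list went both ways: over the 5 days 4 of 12 were called higher in the F/R/C arm and 3 lower, with a median log2 change of 0.42 (all genes -0.03), and on day 2 the median was 1.08 with 2 higher and 0 lower. The sum of 11 muscle progenitor markers was 953 to 2140 with MyoD alone and 1644 to 2824 in the F/R/C arm, and Myf5 had no reads on days 2, 4, 6 and 10 of MyoD alone or on day 2 in the F/R/C arm. Calcr had none in either arm except on day 10 in the F/R/C arm. Differentiated muscle markers on day 10 summed to 9695 to 34260 CPM with MyoD alone and 13230 to 22314 CPM in the F/R/C arm. Endothelial, macrophage and adipocyte markers summed to 23.5 CPM or less in every library, and neural markers to 169 CPM or less. Smooth muscle markers summed to 4064 to 9959 CPM with MyoD alone and 2995 to 6854 CPM in the F/R/C arm. Des, 1 of these 6 markers, is also on the list of known MEF2 target genes read below. In the mean over the 5 days 1 of the 6 was called higher in the F/R/C arm and 2 lower (all genes 11.6% and 10.5%). On day 10 alone 0 were higher and 3 lower (all genes 9.91% and 13.4%).

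The order of the group means shows how few neighbouring groups were apart. For Mef2a the order ran from F/R/C day 2 (897 CPM) over Pax7+ myoblasts (824), MyoD alone day 2 (688), bulk myoblasts (652) and F/R/C day 4 (650) to bulk iMPC (494), F/R/C day 6 (493), day 8 (345) and day 10 (313). Below these came MyoD alone on days 6, 4, 10 and 8 (235, 235, 226 and 216), MEF (179) and Pax7+ iMPC (129.6). In 3 of its 14 neighbouring pairs the libraries did not overlap: F/R/C day 4 and bulk iMPC, F/R/C day 6 and day 8, and F/R/C day 10 and MyoD alone day 6. The other 11 overlapped.

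For Mef2c the order was MyoD alone on days 4, 6, 8 and 10 (1816, 1802, 1178 and 1129 CPM), F/R/C on days 4 and 6 (1042 and 965), bulk iMPC (786), F/R/C on days 8 and 10 (703 and 663), bulk myoblasts (555), day 2 of MyoD alone (445) and of F/R/C (338), Pax7+ myoblasts (143), Pax7+ iMPC (43.8) and MEF (7.30). Only the last 2 steps, into Pax7+ iMPC and into MEF, were without overlap. For Mef2d the order was MyoD alone on days 2, 4 and 6 (425, 344 and 338 CPM), F/R/C day 4 (321), bulk iMPC (281), MyoD alone day 8 (281), F/R/C on days 6 and 2 (273 and 272), MyoD alone day 10 (268), bulk myoblasts (253), Pax7+ myoblasts (250.2), F/R/C on days 8 and 10 (229.7 and 222), MEF (146) and Pax7+ iMPC (114). Again only the last 2 steps did not overlap. For Mef2b none of the 14 neighbouring pairs was apart.

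Levels of different genes can be set against each other per transcript length, in TPM (scaled to transcript length and to a common library total), here over transcripts with a complete coding sequence. In MEF these summed to 131 TPM, of which Mef2a gave 49.8%, Mef2d 48.5% and Mef2c 1.80%, Mef2a leading in 2 of the 3 libraries and Mef2d in the other. On day 2 the sum was 529 TPM with MyoD alone and 522 TPM in the F/R/C arm. With MyoD alone Mef2a (37.8% ± 2.58, SD, n = 3) and Mef2d (35.6% ± 2.65) were within their spread, Mef2d led in 1 of the 3 libraries, and Mef2c gave 26.6%. In the F/R/C arm Mef2a led in 3 of 3 libraries with 54.1%, against 24.4% for Mef2d and 21.4% for Mef2c.

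From day 4 on, Mef2c led the family in all 24 libraries of both arms. Its share with MyoD alone was 71.8% on day 4, 71.2% on day 6, 60.8% on day 8 and 60.6% on day 10. With F/R/C it was 49.1%, 51.5%, 51.5% and 50.8% on the same days. Mef2a made up 8.60% to 14.8% of the family with MyoD alone over these days and 24.1% to 28.1% in the F/R/C arm, while Mef2d made up 19.5% to 24.9% and 22.6% to 24.6%.

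The family sum was highest on day 4, at 808 TPM with MyoD alone and 651 TPM in the F/R/C arm, and lowest in Pax7+ iMPC at 99.1 TPM. In bulk iMPC, Mef2c led again with 46.1%, before Mef2a with 32.4%. In both Pax7+ groups Mef2a had the highest mean, with 49.1% in iMPC (leading in 2 of 3 libraries) and 69.0% in myoblasts. Bulk myoblasts had the highest mean for Mef2a too, with 46.1% (leading in 2 of 3 libraries) against 27.6% for Mef2d and 26.3% for Mef2c. The Pax7+ groups, bulk iMPC and bulk myoblast replicate 2 differ from the time course in how their libraries split reads among transcripts, which touches the shares. Over all transcripts the sum in Pax7+ iMPC was 121 TPM, still the lowest, and the Mef2c share there was 20.8% in place of 14.6%. In bulk iMPC the Mef2c share was 53.1% over all transcripts.

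**Figure D3:**
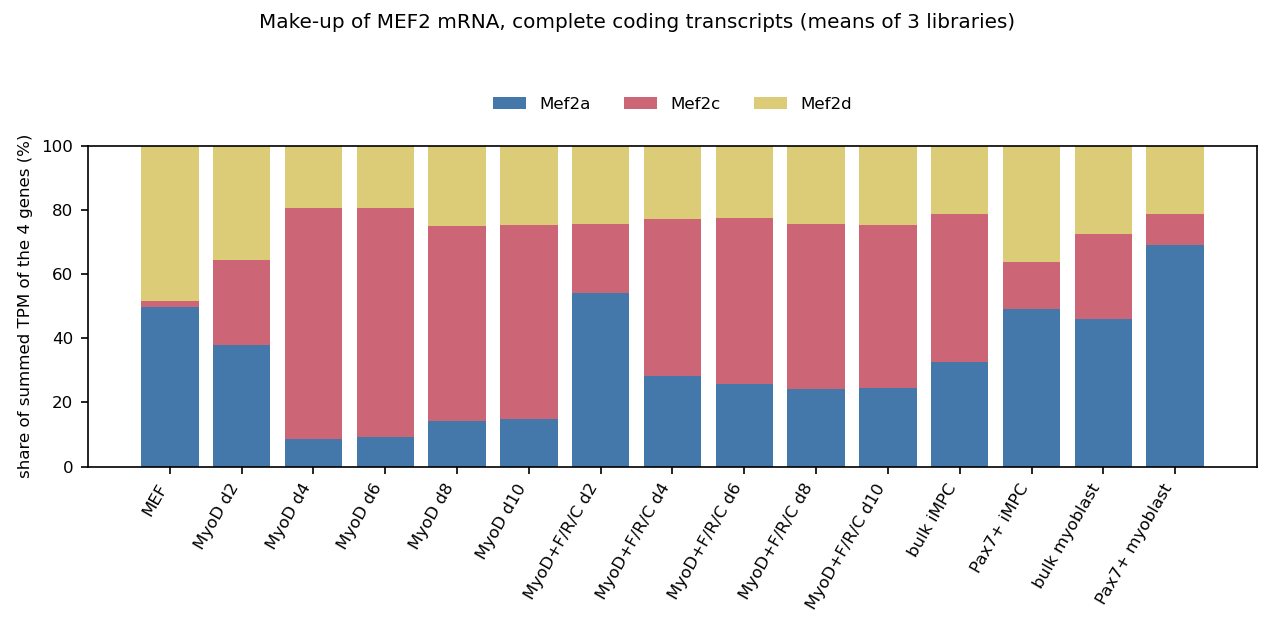
Share of each MEF2 gene in the summed TPM of complete coding transcripts (vertical axis, percent, mean of 3 libraries) as stacked bars for the 15 groups (horizontal axis). Mef2c grows from 1.80% in MEF to 71.8% on day 4 of MyoD alone and 49.1% on day 4 in the F/R/C arm.

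In the established bulk iMPC the members stood at 912, 568 and 876 CPM for Mef2c, 558, 426 and 500.1 CPM for Mef2a and 318, 238 and 287 CPM for Mef2d. Every one of these values was above the MEF values of its gene, and the share of all genes for which this held is not given here. Mef2c (log2 fold change 6.74 ± 0.85, adjusted p = 1.06e-07) and Mef2a (log2 fold change 1.46 ± 0.32, adjusted p = 0.000328) rose against MEF, 2 of 3 members where 35.5% of all genes were called. Mef2d passed on p and fell short of the fold threshold (log2 fold change 0.95 ± 0.26, adjusted p = 0.00308), which it passed without MEF replicate 1, MEF replicate 2 or iMPC replicate 2 (log2 fold change up to 1.12) and with no filter on low counts (1.05). Mef2b had 5, 10 and 2 reads, at least 3.12-fold above the floor in MEF. The bulk iMPC libraries were deeper, at 33.2 M to 36.3 M reads against 15.6 M to 21.3 M in MEF. Depth and group cannot be told apart here, against day 10 in the F/R/C arm or against Pax7+ iMPC. Of the bulk myoblasts only replicate 2 was as deep, at 35.5 M reads. The part of depth in these gene-level differences was not tested.

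Against day 10 in the F/R/C arm, no member was called in bulk iMPC (all genes 9.57%), although Mef2a did not overlap and was higher in iMPC (log2 fold change 0.66 ± 0.32, adjusted p = 0.143). Nor was a member called between bulk iMPC and bulk myoblasts (all genes 19.6%). The 3 myoblast libraries read 643, 999.6 and 22.02 CPM for Mef2c, 866, 868 and 222 CPM for Mef2a and 362, 266 and 129.9 CPM for Mef2d. Replicate 3 was the lowest for all 3 members. With all libraries the iMPC to myoblast difference was log2 fold change 0.50 ± 0.66, adjusted p = 0.596 for Mef2c and log2 fold change 0.15 ± 0.26, adjusted p = 0.697 for Mef2d, and both changed sign without myoblast replicate 3 (log2 fold changes -0.06 and -0.16). For Mef2a it was log2 fold change -0.40 ± 0.32, adjusted p = 0.355, and without myoblast replicate 3 log2 fold change -0.81, adjusted p = 0.0272, short of the fold threshold. Of the 12 fibroblast markers 11 were higher in bulk iMPC than in bulk myoblasts (median log2 change 5.29) and 1 was lower, and their part in this comparison was not tested.

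Sorted Pax7+ iMPC held the least Mef2a and Mef2d of the 15 groups. They read 97.8, 128 and 163 CPM for Mef2a, 37.05, 51.6 and 42.7 CPM for Mef2c and 126, 108 and 108 CPM for Mef2d. All were below every bulk iMPC library, and the share of all genes that lay apart in this way is not given here. All 3 members fell against bulk iMPC (Mef2c log2 fold change -4.17 ± 0.75, adjusted p = 3.81e-05, Mef2a log2 fold change -1.93 ± 0.33, adjusted p = 1.84e-05, Mef2d log2 fold change -1.30 ± 0.27, adjusted p = 0.000172), where 30.3% of all genes were called. Beside this, the differentiated muscle markers summed to 1377 to 1898 CPM in the sorted cells and 21915 to 28355 CPM in the bulk. The part of this difference in the MEF2 result was not tested, and the sorted libraries were also quantified by the authors with another fragment-length setting.

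Pax7+ myoblasts read 543, 534 and 1396 CPM for Mef2a, 68.9, 63.96 and 296 CPM for Mef2c and 184, 254 and 312 CPM for Mef2d. Replicate 3, the library with the most differentiated muscle markers, was the highest for all 3. Pax7+ iMPC were lower than Pax7+ myoblasts in Mef2a (log2 fold change -2.67 ± 0.34, adjusted p = 1.77e-07), Mef2d (log2 fold change -1.14 ± 0.27, adjusted p = 0.000699) and Mef2c (log2 fold change -1.71 ± 0.68, adjusted p = 0.0384), 3 of 3 called where 30% of all genes were called. The groups did not overlap in any of the 3, and the share of all genes without overlap is not given here. Without Pax7+ myoblast replicate 3 the Mef2a difference was log2 fold change -2.05, adjusted p = 3.87e-06. Differentiated muscle markers were lower in Pax7+ iMPC too, 8 of 11 called (median log2 change -2.45), at sums of 4357, 5473 and 15267 CPM in the 3 Pax7+ myoblast libraries, and their part was not tested.

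The Mef2c call was the least secure of these. It was lost without Pax7+ myoblast replicate 3 (log2 fold change -0.60, adjusted p = 0.503), without any 1 of the 3 Pax7+ iMPC libraries, with no filter on low counts (adjusted p = 0.0572) and with only the compared groups fitted (adjusted p = 0.0733). The Mef2d call moved under the fold threshold without Pax7+ myoblast replicate 3 (log2 fold change -0.95). Between Pax7+ and bulk myoblasts no member was called (all genes 6.23%). For Mef2c this difference was log2 fold change -1.96 ± 0.68, adjusted p = 0.0568, and it was called by DESeq2 (adjusted p = 0.0253), without myoblast replicate 3 (log2 fold change -2.53, adjusted p = 0.00273) and without Pax7+ myoblast replicate 3 (-3.04, adjusted p = 0.0108).

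The deposited tables hold 12 transcripts of Mef2a, 5 of Mef2b, 31 of Mef2c and 7 of Mef2d. Of these, 6, 0, 8 and 5 were expressed, meaning at least 10% of the gene's TPM in a group mean with at least 1 TPM. Estimates for single transcripts differed between 2 classes of library, the 4 deepest and 6 sorted libraries and the other 35. Mef2a-210 had a median share of 23.7% of its gene's TPM in the 35 and 0 in the 10, Mef2c-219 11.7% and 0, and Mef2c-216 at most 0.0078% in the 35 and a median of 11.1% in the 10. Library class and group cannot be told apart for iMPC and sorted cells, so single transcripts and exons are compared here within MEF and the time course.

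The 19 expressed transcripts were chosen with the MyoD groups included. They belong to Mef2a, Mef2c and Mef2d, each called as a gene on day 2 of MyoD alone, and are not independent of those calls. On that day 17 of the 19 rose against MEF, where 9.46% of the 60138 transcripts tested were called. The leading Mef2a transcript, Mef2a-208, with 43.3% of the gene's TPM in MEF, was among them (log2 fold change 2.14 ± 0.40, adjusted p = 0.000245). So was Mef2c-201 (log2 fold change 6.81 ± 1.01, adjusted p = 8.97e-06), which grew from 7.03% of Mef2c in MEF to 34.6% on day 10 of MyoD alone and 29.0% in the F/R/C arm.

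Among the Mef2d transcripts, Mef2d-203, which carries the short acidic exon, had the largest fitted change of the 5 expressed. It was listed at 0 TPM in 2 of the 3 MEF libraries and at 4.88 TPM in the other, and at 37.0 to 50.8 TPM after 2 days of MyoD alone (log2 fold change 5.0 ± 0.84, adjusted p = 5.59e-05), against log2 fold change 1.60 ± 0.27, adjusted p = 7.76e-05 for Mef2d-201. It was still called on day 10 in both arms (MyoD alone log2 fold change 4.01 ± 0.80, adjusted p = 0.000667, all transcripts 7.47%, MyoD and F/R/C log2 fold change 3.87 ± 0.80, adjusted p = 0.00051, all transcripts 15.4%).

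For F/R/C against MyoD alone, the transcripts called on day 4 were Mef2a-208 (log2 fold change 1.72 ± 0.39, adjusted p = 0.00824) and Mef2a-203 (log2 fold change 1.79 ± 0.52, adjusted p = 0.0428), where 2.72% of all transcripts were called. Without the filter on low counts Mef2a-203 lost its call (adjusted p = 0.0707) and Mef2a-208 was called (adjusted p = 0.0136). On day 6 it was Mef2a-208 alone (log2 fold change 1.32 ± 0.39, adjusted p = 0.0488, all transcripts 2.92%), and that call was lost with relative-log factors (adjusted p = 0.0545) and without the filter (adjusted p = 0.079). Mef2a-208 read 33.9 to 41.7 TPM on day 4 of MyoD alone and 108 to 123 TPM in the F/R/C arm, and the groups did not overlap.

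The exons in which the transcripts of each gene differ are shown because the shares below count them, in GRCm38 coordinates. The short acidic exons follow, read in frame on the strand of the gene, with the codons that begin with GA and stand for aspartate or glutamate in capitals. They lie at chr7:67244521-67244544 (Mef2a, minus strand), chr13:83654598-83654621 (Mef2c, plus strand) and chr3:88161781-88161801 (Mef2d, plus strand).
Mef2a 24-base segment: tcgGAGGAAGAGGAAttgGAGttg
Mef2c 24-base segment: tctGAGGATgtgGATctgctgttg
Mef2d 21-base segment: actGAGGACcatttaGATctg
Of the 8 codons of the Mef2a exon 5 are acidic, against 3 of 8 in Mef2c and 3 of 7 in Mef2d.

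The alternative pairs of Mef2c and Mef2d are shown because the second exon of each pair is the form known from skeletal muscle. Capitals mark the bases that are identical when the 2 exons of a pair are aligned. The Mef2c exons lie at chr13:83625265-83625408 and chr13:83625470-83625607, those of Mef2d at chr3:88158034-88158171 and chr3:88158221-88158355, all on the plus strand and all coding.
Mef2c 144-base segment: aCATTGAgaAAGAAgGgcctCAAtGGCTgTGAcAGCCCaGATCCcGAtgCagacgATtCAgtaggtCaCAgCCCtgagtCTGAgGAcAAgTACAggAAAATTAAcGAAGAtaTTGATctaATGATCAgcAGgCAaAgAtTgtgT
Mef2c 138-base segment: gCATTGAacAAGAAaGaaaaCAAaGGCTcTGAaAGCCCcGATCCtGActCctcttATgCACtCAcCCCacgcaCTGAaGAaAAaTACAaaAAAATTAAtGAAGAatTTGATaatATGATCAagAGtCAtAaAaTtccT
Mef2d 138-base segment: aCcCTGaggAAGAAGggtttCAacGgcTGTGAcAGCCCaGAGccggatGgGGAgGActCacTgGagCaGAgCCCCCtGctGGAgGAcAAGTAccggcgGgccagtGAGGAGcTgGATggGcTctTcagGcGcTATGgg
Mef2d 135-base segment: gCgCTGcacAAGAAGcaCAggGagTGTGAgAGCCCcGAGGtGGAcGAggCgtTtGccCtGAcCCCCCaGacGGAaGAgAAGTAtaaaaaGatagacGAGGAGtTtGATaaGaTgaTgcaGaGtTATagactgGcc
The Mef2c pair is identical at 62.5% of 144 aligned positions and the Mef2d pair at 51.4% of 144.

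The short exon of Mef2d was nearly absent from MEF and present throughout the time course. Its share of the complete coding Mef2d TPM was 6.88, 0 and 0% in the MEF libraries, 22.1, 23.1 and 25.2% on day 2 of MyoD alone and 22.9, 23.4 and 22.03% on day 2 in the F/R/C arm. No time-course library was below 14.6%. Group means were between 17.9% and 23.5% in all 10 groups.

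The short exon of Mef2a was already in use in MEF, at 44.4, 44.6 and 53.9% of complete coding Mef2a TPM. The means over days 2 to 10 were 60.1%, 54.8%, 54.4%, 59.1% and 54.9% with MyoD alone. In the other arm they were 56.1%, 64.5%, 65.4%, 63.98% and 66.5%. The F/R/C mean was thus lower on day 2 and higher on the other 4 days.

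The muscle form of the Mef2c pair had a higher share on day 10 than on day 2 in both arms, without overlap. With MyoD alone it was 27.4, 26.4 and 27.5% of complete coding Mef2c TPM on day 2 and 52.6, 56.99 and 51.8% on day 10. With F/R/C it was 38.9, 39.8 and 33.6% on day 2, above all 3 libraries of MyoD alone, 47.4, 51.1 and 49.9% on day 4 and 41.8, 41.8 and 53.2% on day 10. The muscle form of Mef2d stayed the smaller part of its gene, at 5.43, 12.5 and 10.1% in MEF, 17.2, 22.9 and 15.96% on day 4 of MyoD alone and 21.1, 25.04 and 22.7% on day 4 in the F/R/C arm.

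**Figure D4:**
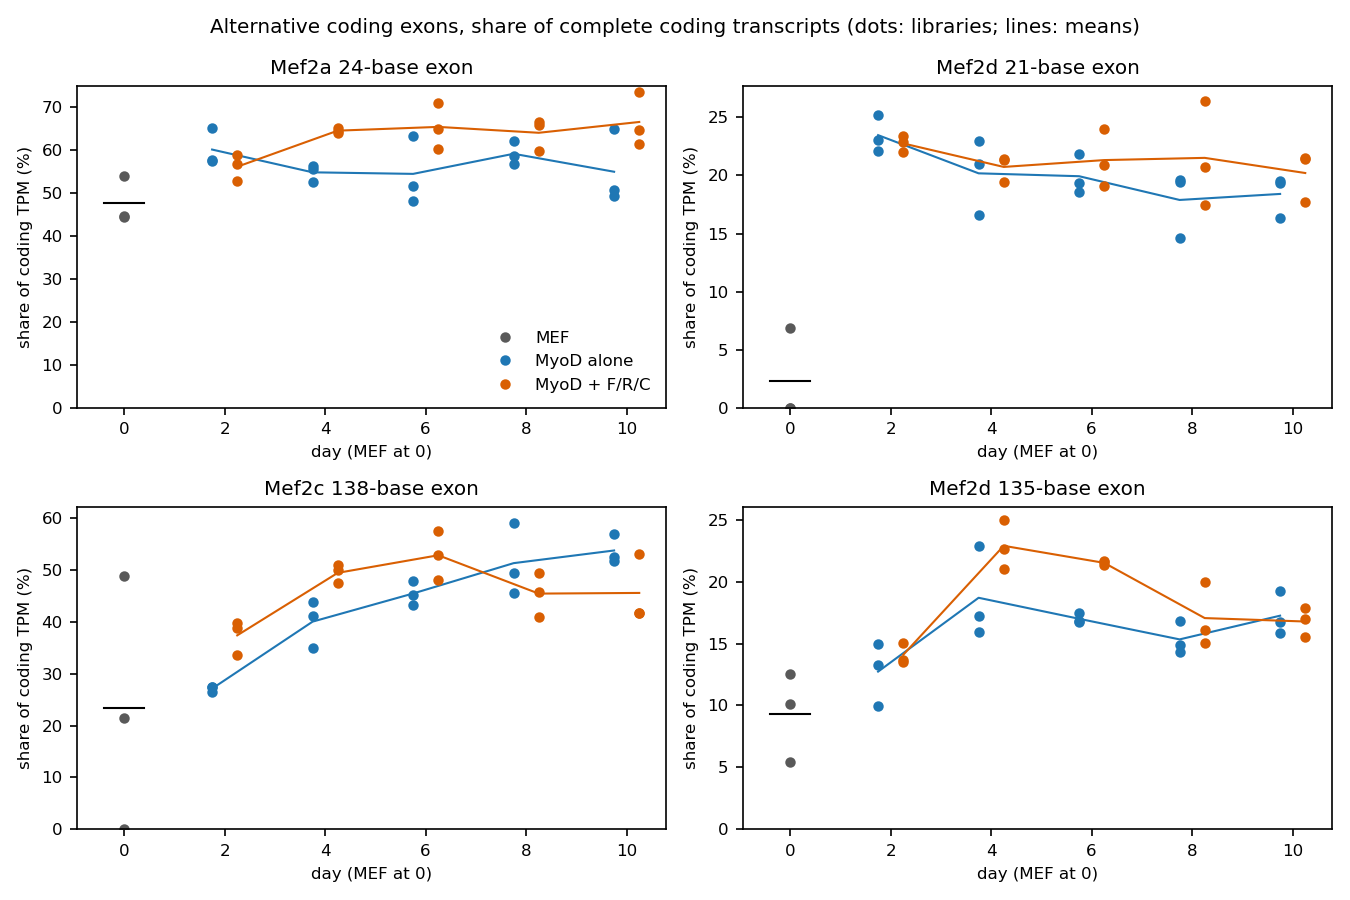
Share of complete coding TPM that carries the named exon (vertical axes, percent) by day (horizontal axis, MEF at 0) for the short exons of Mef2a and Mef2d and the muscle exons of Mef2c and Mef2d, with 1 dot per library and the 2 arms side by side. The short Mef2d exon moves from a mean of 2.29% in MEF to at least 14.6% in every later library.

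The 2 arms were compared in the share of 11 coding segments in all of the gene's TPM, by a 2-sided permutation test within days with 100000 draws and Benjamini-Hochberg adjustment over the 11. The test counts libraries of different days as independent. Over all genes, same-numbered libraries of day 2 and day 4 deviated together within an arm (r = 0.38 to 0.42 with MyoD alone, 0.42 to 0.47 with F/R/C). Between day 2 and day 10 r was 0.20 to 0.42 and 0.03 to 0.30. What a replicate number marks is not given, and where it marks 1 culture over time these p-values may be too small. The short Mef2a exon averaged 74.7% in the F/R/C arm and 67.5% with MyoD alone, a difference of 7.11 percentage points (adjusted p = 0.00434, permutation test), higher in 13 of 15 same-numbered pairs. Without replicate 1 the difference was 6.35 points (adjusted p = 0.0866) and without replicate 3 it was 5.44 points (adjusted p = 0.0916). The short exon is also carried by Mef2a-210, whose estimate split the libraries by class. Over complete coding transcripts, which leave Mef2a-210 out, the difference was 6.62 points (adjusted p = 0.0251).

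The muscle exon of Mef2d averaged 15.2% in the F/R/C arm and 13.1% without, a difference of 2.07 points (adjusted p = 0.00818, permutation test), with the higher mean on 5 of 5 days and in 11 of 15 pairs. It lost the call without replicate 1 (2.10 points, adjusted p = 0.0635) and without replicate 3 (1.70 points, adjusted p = 0.171). A 96-base segment near the end of the Mef2c coding sequence (chr13:83662307-83662402), known as the gamma region, averaged 50.3% in the F/R/C arm and 53.7% without, a difference of -3.42 points (adjusted p = 0.00434). That call was lost in shares of estimated counts (-0.96 points, adjusted p = 0.481), over complete coding transcripts (-2.20 points, adjusted p = 0.0952), without replicate 1 (-2.99 points, adjusted p = 0.0866) and without replicate 2 (-3.25 points, adjusted p = 0.054).

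Of the other 8 segments, 2 of Mef2a passed, of 102 bases (-5.82 points, adjusted p = 0.00434) and of 132 bases (-5.07 points, adjusted p = 0.00434). The 102-base difference rests on Mef2a-210, the transcript whose estimate split the libraries by class. The 102-base call was lost without replicate 1 (-4.66 points) or 3 (-4.33 points), and that of 132 bases was lost without replicate 1 (-4.35 points) and over transcripts that span the segment (-0.71 points, adjusted p = 0.424). The muscle exon of Mef2c (1.08 points), the short exons of Mef2c (-1.76 points) and Mef2d (1.32 points) and the other 3 segments did not pass.

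Mef2c transcripts begin at several first exons, and the one at chr13:83504034-83504376, the start of the gene, gained share. It opened 16.5% of Mef2c TPM in MEF (0 to 27.6% over the 3 libraries, on a mean of 0.627 TPM), 28.3% on day 2 of MyoD alone (26.3% to 29.4%) and 58.8% on day 10 (56.4% to 61.6%). With F/R/C it opened 36.9% on day 2 (35.7% to 37.6%), 54.9% on day 6 and 52.2% on day 10 (49.6% to 57.0%). In both arms day 10 lay above day 2 without overlap, and on day 2 the F/R/C libraries lay above those of MyoD alone. In TPM this start reached 325 on day 4 of MyoD alone and 196 in the F/R/C arm. A first exon at chr13:83573607-83573774 gave 30.3% in MEF. With MyoD alone its share was 27.5% on day 2 (25.8% to 30.02%) and 18.3% on day 10 (17.3% to 19.5%), and in the F/R/C arm it was 21.3% and 24.4%.

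The 250 bases before the first exons at chr13:83504034-83504376 and chr13:83573607-83573774 are shown (RefSeq, GRCm38.p6, plus strand, chr13:83503784-83504033 and chr13:83573357-83573606). They were picked because, with MyoD alone, the share of the first grew between day 2 and day 10 while that of the second shrank. The second was not the only start to lose share, and its mean TPM was higher on day 10 than on day 2. Capitals mark each match to CANNTG, the E-box that MyoD and other helix-loop-helix proteins bind, a motif that reads alike on both strands.
Mef2c promoter 83503784: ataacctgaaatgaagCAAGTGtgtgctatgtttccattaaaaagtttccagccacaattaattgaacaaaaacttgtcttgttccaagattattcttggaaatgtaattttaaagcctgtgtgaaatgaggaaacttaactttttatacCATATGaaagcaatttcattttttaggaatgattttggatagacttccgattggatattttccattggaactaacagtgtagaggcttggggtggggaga
Mef2c promoter 83573357: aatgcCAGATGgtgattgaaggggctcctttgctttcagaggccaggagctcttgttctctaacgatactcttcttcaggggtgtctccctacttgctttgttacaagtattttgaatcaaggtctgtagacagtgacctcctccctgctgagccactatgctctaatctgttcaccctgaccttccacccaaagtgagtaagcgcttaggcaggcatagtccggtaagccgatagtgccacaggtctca
The first window holds 2 matches, at positions -234 and -100 from the start, and the second holds 1, at -245. Of 32817 RefSeq promoter windows, 66.2% hold CANNTG. The E-box form CAGCTG, a special case of it, is in 13.0% of the windows and the MEF2 consensus in 2.92%. Both were searched on both strands and had no match in the 2 windows shown.

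Regulators and cofactors of MEF2 were read from a list of 30 genes, all of which were tested. On day 10 of MyoD alone against MEF, 6 of 30 rose and 0 fell (of all genes 14.3% rose and 4.64% fell), with a median log2 change of 0.05 against 0.01 over all genes. Vgll2, a cofactor of TEAD and MEF2 in muscle (log2 fold change 10.27 ± 1.08, adjusted p = 9.74e-09), Akap6, which anchors kinases at the nuclear envelope of muscle (log2 fold change 6.82 ± 0.64, adjusted p = 1.31e-09) and Srpk3, a muscle kinase of splicing factors and itself a MEF2 target (log2 fold change 6.23 ± 0.73, adjusted p = 5.3e-08), rose most. Akap6 went from a mean of 2.39 CPM in MEF to 508 CPM on day 4 and 270.2 CPM on day 10 of MyoD alone.

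In the mean over the 5 days, 0 of the 30 were higher and 4 were lower in the F/R/C arm than with MyoD alone (median -0.11, all genes -0.03). Of all genes 11.6% were higher and 10.5% lower. Hdac5, a class IIa deacetylase that represses MEF2, was lower (log2 fold change -1.16 ± 0.14, adjusted p = 8.65e-09). Its group means in the F/R/C arm and with MyoD alone were 72.3 and 162 CPM on day 2, 92.9 and 193 CPM on day 4 and 54.8 and 133 CPM on day 10. On each of these days the 2 arms did not overlap. Camk1 (log2 fold change -1.07 ± 0.11, adjusted p = 6.94e-10) and Camk4 (log2 fold change -1.08 ± 0.41, adjusted p = 0.0232), both calcium-dependent kinases that act on class IIa deacetylases, were lower too, Camk4 at under 1 CPM in every group mean. The fourth was Akap6 (log2 fold change -1.04 ± 0.22, adjusted p = 0.000129), named because the count is small. Without F/R/C day 10 replicate 2 the list had 1 gene higher and 1 lower.

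In bulk iMPC against bulk myoblasts 2 of the 30 regulators rose and 2 fell, where 10.9% of all genes rose and 8.7% fell. The fibroblast markers named above rose in this comparison. Vgll2 was higher (log2 fold change 2.82 ± 0.69, adjusted p = 0.00215), at means of 64.7 and 9.08 CPM. Hdac5 (log2 fold change -1.49 ± 0.31, adjusted p = 0.000381) and Cabin1, a calcineurin-binding repressor of MEF2 (log2 fold change -1.22 ± 0.17, adjusted p = 2.48e-06), were lower. Without myoblast replicate 3 the counts were 1 higher and 2 lower, without replicate 1 4 and 3, and with only the compared groups fitted 1 and 1.

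Known MEF2 target genes were read from a second list of 30, all tested. Against MEF, 21 rose and 3 fell on day 2 of MyoD alone (all genes 12.3% and 10.1%), and 23 rose and 0 fell on day 10 (all genes 14.3% and 4.64%). In the F/R/C arm 21 rose and 4 fell on day 2 (all genes 11.5% and 8.93%), and 24 rose and 4 fell on day 10 (all genes 19% and 15.8%). The median log2 changes were 5.37, 6.70, 5.31 and 6.16, against 0 or 0.01 with MyoD alone and 0 or 0.08 in the F/R/C arm over all genes. MyoD binds many of the same genes, and Myog and Ckm are also among the differentiated muscle markers. Mb, the oxygen store myoglobin, had no reads in MEF and was at least 2025-fold above the floor on day 10 of MyoD alone and at least 239-fold in the F/R/C arm. The slow and cardiac myosin Myh7 (log2 fold change 11.11 ± 1.25, adjusted p = 2.93e-08) and the actin-binding Xirp2 (log2 fold change 10.43 ± 1.77, adjusted p = 2.89e-05) came next, from MEF means of 0.369 and 0.230 CPM.

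With F/R/C against MyoD alone, 1 of the 30 targets was higher and 5 were lower in the mean over the 5 days (median -0.29, all genes -0.03, of which 11.6% and 10.5% were called higher and lower). The largest decrease against MyoD alone was that of Mb (log2 fold change -2.67 ± 0.34, adjusted p = 6.31e-08), followed by the ventricular and slow myosin light chain Myl2 (log2 fold change -1.73 ± 0.68, adjusted p = 0.0281) and the MEF2-dependent zinc finger factor Klf2 (log2 fold change -1.59 ± 0.22, adjusted p = 1.65e-07). On day 10 alone 0 were higher and 8 lower (all genes 9.91% and 13.4%), or 5 lower without F/R/C day 10 replicate 2. Klf4, Klf6 and Nr4a1 were among these 8 (names taken after seeing the values), and they are also immediate-early genes outside muscle.

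Sorted Pax7+ iMPC had 0 of the 30 targets higher and 26 lower than bulk iMPC (median -3.39, all genes -0.13, of which 9.88% were called higher and 20.5% lower). Against Pax7+ myoblasts 4 were higher and 20 lower (median -2.59, all genes -0.07, of which 12.4% and 17.6%), or 4 and 15 without Pax7+ myoblast replicate 3. The differentiated muscle markers moved the same way in both, with 9 and 8 of 11 lower (medians -4.36 and -2.45), and their part in the target counts was not tested. In bulk iMPC against bulk myoblasts 4 rose and 4 fell (median 0.19, all genes 0.01, of which 10.9% and 8.7%), or 4 and 5 without myoblast replicate 3, beside the 11 of 12 fibroblast markers that rose. The 3 largest changes were Meg3 (log2 fold change 6.16 ± 0.70, adjusted p = 1.78e-07), Mirg (log2 fold change 6.15 ± 0.58, adjusted p = 5.98e-09) and Rian (log2 fold change 6.05 ± 0.53, adjusted p = 1.57e-09), noncoding RNAs of 1 imprinted cluster.

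**Figure D5:**
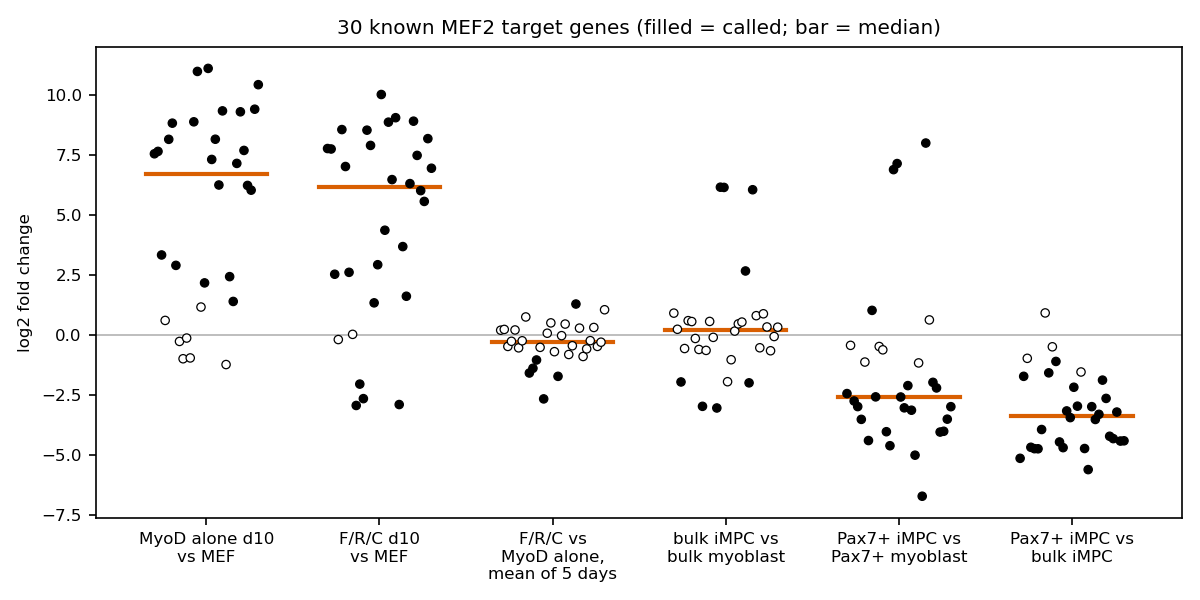
Log2 fold changes (vertical axis) of the 30 known MEF2 target genes in 6 comparisons (horizontal axis), with 1 dot per gene, filled where called, a bar at the median, and genes with 3 reads or fewer in a group drawn at the bound that this count allows. The median is 6.70 on day 10 of MyoD alone against MEF and -3.39 in Pax7+ iMPC against bulk iMPC.

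The genes whose group means ran most like those of each member were read from all 17325 genes by Pearson's r of mean log2 CPM over the 15 groups. This is a description, since the groups share their starting cells and library classes. For Mef2c they were Mustn1 (0.99), Hspb7 (0.99), Hspb3 (0.99) and Ablim3 (0.98), and Hspb7, a small heat shock protein of muscle, is also on the target list. For Mef2d they were Samd8 (0.97), Zhx3 (0.96), Uso1 (0.95), Cdkn1a (0.95) and Akap9 (0.95). For Mef2a they were Armcx6 (0.94), Tmem68 (0.92), 4921525O09Rik (0.91), Ugcg (0.91) and Gal (0.91). For Mef2b, at its low counts, they were Gm29084, Plcd3, Clstn3, Gm38279 and Fgf9 (0.89 to 0.90).

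Between members, Mef2c and Mef2d were most alike over the 15 groups (r = 0.76), Mef2a and Mef2d less so (0.53), and Mef2a and Mef2c least among the 3 abundant genes (0.23). Mef2b had r = 0.52 with Mef2c and 0.02 with each of Mef2a and Mef2d.

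In the annotation (GENCODE M21, GRCm38) Mef2a (ENSMUSG00000030557) lies at chr7:67231163-67372858 on the minus strand, Mef2c (ENSMUSG00000005583) at chr13:83504034-83667080 and Mef2d (ENSMUSG00000001419) at chr3:88142372-88172086, both on the plus strand. Mef2b (ENSMUSG00000079033) lies at chr8:70139711-70167488 on the plus strand and overlaps Borcs8. Its estimated counts were whole reads to within 3.92e-05 in every library, whereas those of Mef2a departed by up to 0.487 of a read.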

How the data were processed

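The deposited tables give, per transcript and library, the authors' estimated counts (expected counts in kallisto's layout, per the file headers) and TPM, values scaled by the authors' quantification to effective length and library. The submitters' processing notes list bcl2fastq 2.19, Trimmomatic 0.36, kallisto 0.44, edgeR 3.28 and GRCm38.p6, without role or order. The effective lengths of the 6 sorted libraries follow another fragment-length setting. Of 121843 transcripts, 121104 matched GENCODE M21 (99.4% to 99.8% of reads), and 739 were left out.

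Estimated counts were summed per gene, rounded and tested with edgeR 4.0.16 (R 4.3.3, quasi-likelihood, TMM, filterByExpr, 17325 genes, all 45 libraries, 30 residual degrees of freedom) with Benjamini-Hochberg adjustment. CPM use TMM-scaled library sizes. Transcripts were fitted likewise. DESeq2 1.42.0, relative-log factors, no filter, only the compared groups, a replicate block and leaving out libraries were alternatives. On simulated counts for day 10 of F/R/C against MyoD alone, 137 of 200 genes changed 4-fold were called, with 3 false calls over 17325 genes.

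Members and lists were chosen with earlier results of these data known. Named from the lists were the 3 largest called changes in MyoD alone day 10 against MEF, F/R/C over 5 days, and bulk iMPC against myoblasts. Of the 5 genes most like each member, 1 is not reported here. The 5 comparisons of days 4, 6 and 8 were added after seeing the data. Same-numbered libraries of the 2 arms deviated together on days 2, 4 and 6, with every correlation over 0.1. In replicates 1, 2 and 3 the correlations were 0.234, 0.227 and 0.0791 on day 8 and 0.264, 0.246 and 0.0617 on day 10. On these 2 days only replicate 3 was under 0.1.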

Additional observations from a re-analysis of the deposited data

How the results depend on the processing

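Over the 84 results for member genes, 980 alternative values kept the direction and the side of the threshold, 21 reversed, 14 gained a call and 7 lost it. With only the compared groups fitted, Mef2c was called between day 2 and day 10 with F/R/C (log2 fold change 1.06) and between day 2 and day 4 with MyoD alone (2.01, DESeq2 2.04) and F/R/C (1.63), and was not called in Pax7+ iMPC against Pax7+ myoblasts (-1.71, no filter -1.66). Mef2d in bulk iMPC against MEF was called with no filter (1.05), Mef2c in Pax7+ against bulk myoblasts by DESeq2 (-1.93), and Mef2d there turned sign with relative-log factors (0.0099) and DESeq2 (0.0093). The cause was not tested. The numbers of MEF2 transcripts called were 1 with no filter for F/R/C over 5 days and on day 4, 3 with no filter for bulk iMPC against day 10 with F/R/C, 0 with relative-log factors or no filter on day 6, and, under a replicate block, 2 on day 6 and 1 between day 2 and day 4 of MyoD alone. The block, which pairs same-numbered libraries, changed no call of a member gene or segment (Mef2a on day 4 1.46 in place of 1.47).

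Leaving out 1 library moved these log2 fold changes across a threshold or 0, given as the lowest and highest value. Mef2d in F/R/C day 2 against MEF ran from 0.81 to 1.03, Mef2a in F/R/C day 10 against MEF from 0.67 to 1.13 (called without MEF replicate 3), Mef2b over the 5 days from 0.75 to 1.12 (called without MyoD alone day 6 replicate 2), and the change of the F/R/C effect from day 2 to day 10 from -0.82 to 0.45 for Mef2b and -0.60 to 0.36 for Mef2c. Bulk iMPC against MEF ran from 0.86 to 1.12 for Mef2d, and against bulk myoblasts from -0.063 to 1.28 for Mef2c and -0.16 to 0.50 for Mef2d. Pax7+ iMPC against Pax7+ myoblasts ran from -1.86 to 1.44 for Mef2b, -2.04 to -0.60 for Mef2c and -1.31 to -0.95 for Mef2d, and against bulk iMPC from -0.81 to 1.34 for Mef2b. Pax7+ against bulk myoblasts ran from -0.26 to 0.64 for Mef2a, -3.04 to -1.17 for Mef2c and -0.33 to 0.34 for Mef2d. Mef2b between day 2 and day 4 of MyoD alone ran from -0.078 to 1.43, and Mef2d on day 4 of F/R/C against MyoD alone from -0.24 to 0.093.

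Segment shares without 1 replicate number ran from 5.44 to 9.54 points for the 24-base exon of Mef2a, -8.48 to -4.33 for its 102 and -7.11 to -3.74 for its 132 bases, -4.01 to -2.99 for the 96 bases of Mef2c, -1.69 to 0.78 for the 138 and 1.70 to 2.42 for the 135 bases of Mef2d. In shares of estimated counts the 132-base and 138-base segments of Mef2a gave -0.99 and 0.23 points and the 96 bases of Mef2c -0.96. Over spanning transcripts, added after seeing the data, the 132-base and 138-base segments gave -0.71 and 0.71 and the 138 bases of Mef2d -2.27 (adjusted p = 0.0151). Over complete coding transcripts, also added, they gave -0.88, 0.88 and -2.27 (adjusted p = 0.0251), and the 96 bases of Mef2c -2.20. Mef2b rests on at most 22 reads in a library, so its differences below several-fold were not detectable at this depth.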
